A study of Capra hircus with 9 samples.

Results

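RNA-seq of the submandibular gland of female Lubo goats was compared between the ages of 1 and 12 months. The comparison took every library whose label gives either age, 3 of 1 month and 3 of 12 months, which are 6 of the 9 libraries in the series. The other 3 libraries came from 24-month-old goats and appear only where they are named. Each library came from a separate healthy goat, the goats had natural light and free access to feed, and the groups differ in no treatment or genotype. All goats were fasted and given xylazine before collection. The comparison asks which transcripts of the gland differ between kids and adolescent goats. Transcripts of a gene were summed, and levels are counts per 1000000 (CPM) on TMM library sizes, not corrected for transcript length, so levels are compared between libraries. Where the gene of a list with the most counts is named, that is by CPM and not per length. Values are listed for replicates 1, 2 and 3 of an age in that order, and "at 1 month" stands for the libraries that carry this label. The libraries held 2.01e+07, 2.61e+07 and 2.63e+07 counts at 1 month and 2.59e+07, 2.10e+07 and 2.23e+07 at 12 months, and 3 counts correspond to 0.0872 to 0.181 CPM on the TMM sizes, so smaller differences were not detectable. Of 21355 genes in the table, 18454 had a count above 0 in the 6 libraries and 15064 had enough counts to be tested.

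The submandibular gland makes saliva in acini, whose cells produce mucins, enzymes and antimicrobial proteins in a large endoplasmic reticulum, store them in granules and release them on nerve signals together with a fluid rich in salt. Ducts then take back sodium and chloride and add potassium and bicarbonate. Plasma cells around the acini supply immunoglobulin A, which the epithelium carries into saliva.

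The library labelled 1-month-old replicate 2 goes against its tissue label. MUC19, the gel-forming mucin of salivary glands, stood at 24420, 57 and 17770 at 1 month and 85920, 167000 and 81460 CPM at 12 months. SLC12A2, the chloride loader of salivary cells, stood at 1016, 49.7 and 656 at 1 month and 2772, 3377 and 3943 CPM at 12 months. The water channel AQP5 stood at 229, 0.553 and 134 at 1 month and 642, 513 and 616 CPM at 12 months. These salivary transcripts were near 0 or far lower in the library labelled 1-month-old replicate 2 than in the other 5 libraries. They mark the other 5 as holding salivary tissue, but not as holding it alone. RAG1, the recombinase that developing lymphocytes use to build antigen receptors, stood at 1600, 4750 and 681 at 1 month and 0.0451, 0.0601 and 0.294 CPM at 12 months. Its level was highest in the library labelled 1-month-old replicate 2, was also high in 1-month-old replicates 1 and 3, and was near 0 at 12 months. Across the 15064 tested genes (genes are not independent replicates), log2 levels of 1-month-old replicates 1 and 3 correlated at r = 0.951, and those of the 12-month-old libraries at 0.975 to 0.979. The library labelled 1-month-old replicate 2 correlated with the 12-month-old libraries at only 0.582 to 0.603, against 0.805 to 0.857 for 1-month-old replicates 1 and 3, with which it correlated at 0.823 and 0.809. Counts of genes are therefore given with all 6 libraries and again without the library labelled 1-month-old replicate 2. The second set still holds 1-month-old replicates 1 and 3, in which RAG1 was also high. In whole tissue, fewer cells of a type and less RNA per cell cannot be told apart.

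**Figure D1:**
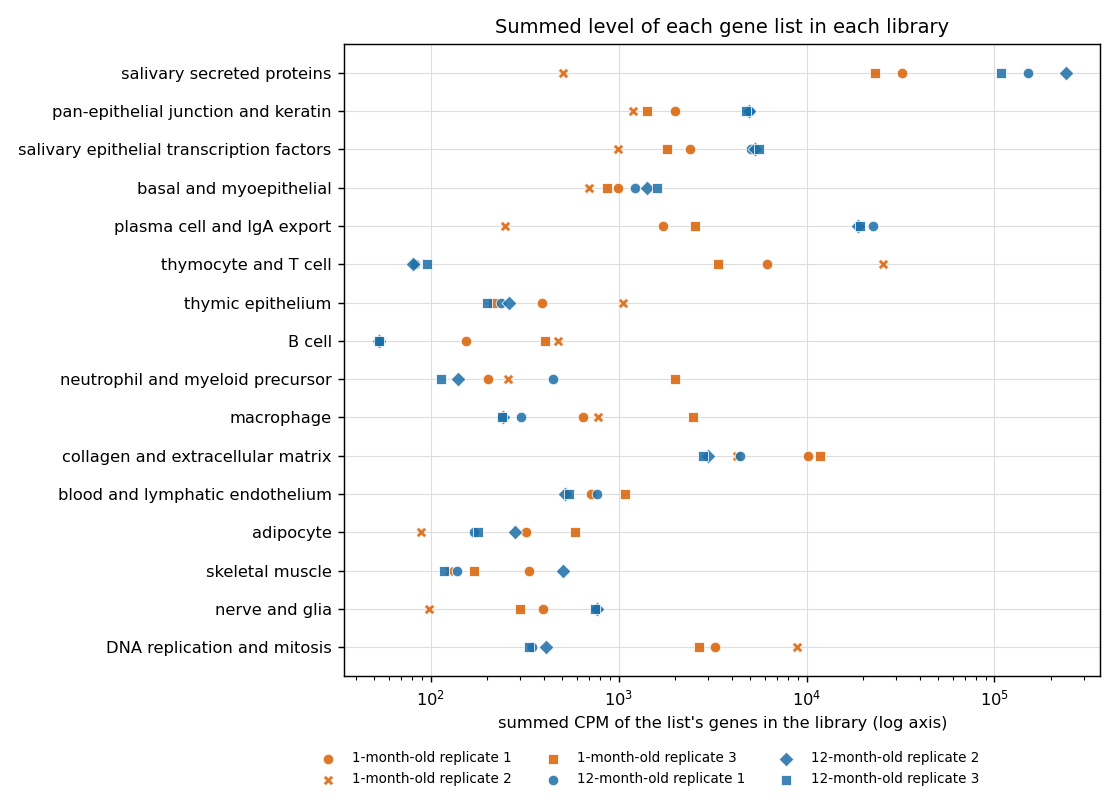
Summed CPM (log axis) of 16 gene lists in each of the 6 libraries, with 1 point per library. The library labelled 1-month-old replicate 2 is lowest for the secreted proteins (509 CPM) and highest for the thymocyte list (25610 CPM).

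At 12 months, some genes of secreted salivary proteins, of endoplasmic reticulum folding and of traffic to the Golgi and granules rose, and none fell. Genes of protein glycosylation went both ways, with 7 rises and 5 falls among 33 tested. Most genes of thymocytes and of cell division fell. "Rose" and "fell" are used below for genes with an adjusted p under 0.05 in edgeR's quasi-likelihood test with all 6 libraries, adjusted over all tested genes by Benjamini-Hochberg. By that test 927 genes rose (6.15% of those tested) and 1805 fell (12.0%). With a log2 fold change beyond 2 as a further requirement, 306 rose (2.03%) and 1462 fell (9.71%). Without the library labelled 1-month-old replicate 2, 3233 of 15292 genes passed as higher (21.1%) and 3445 as lower (22.5%), among them 924 of the 927 and 1797 of the 1805. The 2 ages did not overlap in 8069 genes (53.6%), and in 10401 (68.0%) without that library. The median log2 fold change over all tested genes was -0.05, and -0.02 without that library.

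Few genes took up a large share of the 12-month-old libraries. The 10 genes with the most counts held 12.8, 5.28 and 9.83% of counts at 1 month and 27.7, 33.2 and 23.8% at 12 months. Scaling by total counts in place of TMM moved the median log2 fold change over all genes to -0.52 (-0.55 without the library labelled 1-month-old replicate 2), and 209 genes were then higher and 3317 lower. Changes below are relative to TMM scaling, and lists whose direction turns under total counts are named. Single libraries also moved the counts: 426 rose and 1613 fell without 1-month-old replicate 1. Without 1-month-old replicate 3 the counts were 239 and 1531. They were 7 and 67 without 12-month-old replicate 2, and 15 and 115 without 12-month-old replicate 3. Without 12-month-old replicate 1 the quasi-likelihood test called 0 genes either way, with 4171 at an unadjusted p under 0.05, whereas edgeR's exact test on the same 5 libraries called 755 higher and 1824 lower and DESeq2 called 866 and 2211. With the replicate number as a block, 107 rose and 779 fell. The cause of these differences between fits was not tested.

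**Figure D2:**
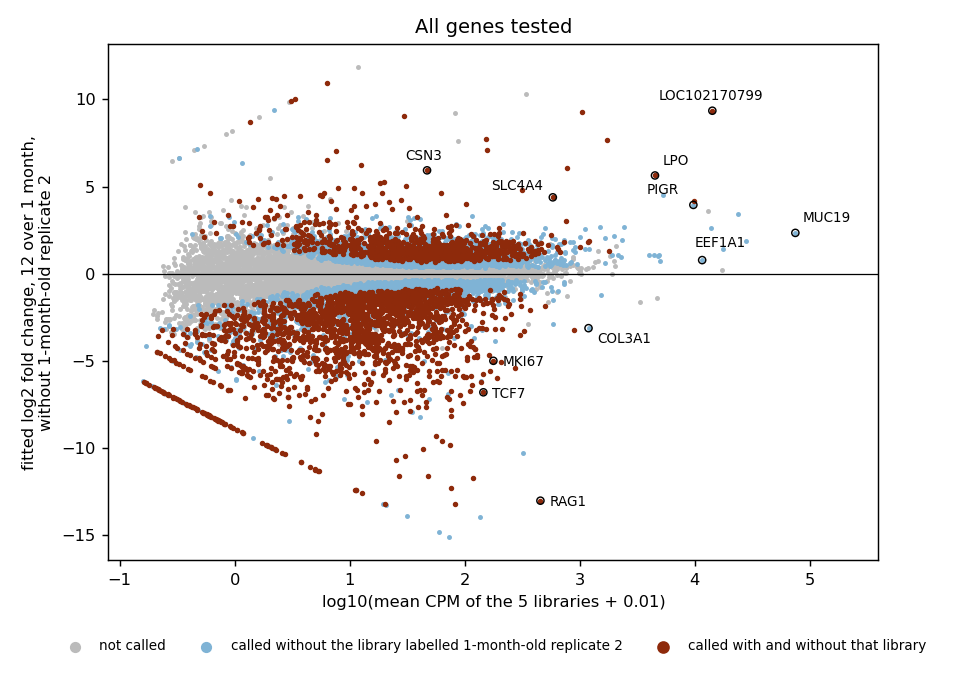
Log2 fold change (12 against 1 month) without the library labelled 1-month-old replicate 2, plotted for each tested gene against the log10 of its mean CPM over the other 5 libraries. Genes not called are grey, genes called only without that library blue, and genes called with and without it dark red.

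Secreted proteins of saliva were higher at 12 months in all members that passed the quasi-likelihood test with all 6 libraries. Of 43 listed proteins, 30 were found in the table and 25 tested, of which 7 rose (the 6.15% over all genes is the background) and 0 fell, with a median log2 fold change of 2.98 against -0.05 over all genes. Without the library labelled 1-month-old replicate 2, 16 of 26 passed as higher (21.1% over all genes) and 0 as lower, with a median of 2.44. Their summed level was 32320, 509 and 23060 at 1 month and 150400, 240400 and 108500 CPM at 12 months, and MUC19 held most of it in the 5 libraries other than the one labelled 1-month-old replicate 2. Every 12-month-old library lay above every 1-month-old library in this sum. Rises numbered 3 without 1-month-old replicate 1, 3 without replicate 3 and 3 with the block. The exact test gave 12 rises and DESeq2 14. Other fits also called falls, with 1 by DESeq2 and 1 without 1-month-old replicate 1. Without the library labelled 1-month-old replicate 2, 3 falls passed by the exact test, 4 by DESeq2 and 4 under total counts. EGF and BPIFA3 had 0 counts in the 6 libraries.

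LPO is lactoperoxidase, an enzyme of saliva and milk that makes an antibacterial oxidant. It stood at 184, 10.9 and 103 at 1 month and 10610, 6870 and 4875 CPM at 12 months, and it rose with a log2 fold change of 6.23 (SE 1.14, adjusted p 0.0164). The lowest 12-month-old library was far above the highest 1-month-old library, and without the library labelled 1-month-old replicate 2 the log2 fold change was 5.63 (SE 0.53, adjusted p 0.0011). LOC102170799, annotated as short palate, lung and nasal epithelium carcinoma-associated protein 2B and thus a BPIFA2 relative, belongs to a family of secreted lipid-binding proteins. Its level was 59.8, 47 and 10.3 at 1 month and 31990, 39000 and 352 CPM at 12 months, and it rose by a log2 fold change of 9.25 (SE 1.97, adjusted p 0.0245). The ages did not overlap, but 12-month-old replicate 3 was far below the other 12-month-old libraries. CSN3 encodes kappa-casein, a protein known from milk. CSN3 was at 0.939, 0 and 1.45 at 1 month and 116, 73.1 and 43.9 CPM at 12 months, and rose by 6.58 (SE 1.19, adjusted p 0.0159) on the log2 scale. Its level was near 0 in each 1-month-old library and clearly above 0 in each 12-month-old library. LPO, LOC102170799 and CSN3 are among the 10 largest rises, which were chosen for no overlap between ages.

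Salivary proline-rich proteins, which bind tannins of the diet, were among the largest rises. LOC102178801, annotated as a basic proline-rich protein, stood at 4.07, 1.15 and 1.42 at 1 month and 629.6, 4190 and 447 CPM at 12 months, a log2 fold change of 9.63 (SE 1.37, adjusted p 0.0101). LOC102170599, a proline-rich protein-like gene, stood at 2.43, 2 and 1.29 at 1 month and 110.2, 459 and 205 CPM at 12 months, a log2 fold change of 7.08 (SE 0.71, adjusted p 0.00608). In both genes the 12-month-old libraries were all above the 1-month-old ones, as the choice of the largest rises required. In both, 12-month-old replicate 2 was the highest. The transcripts TCONS_00061101 and TCONS_00080589 are annotated as odorant-binding proteins, which are small carriers of the lipocalin family. TCONS_00061101 stood at 0.626, 0 and 0.262 at 1 month and 7.03, 1712 and 5.73 CPM at 12 months, with a log2 fold change of 10.90 (SE 3.00, adjusted p 0.0486). TCONS_00080589 stood at 25.3, 1.76 and 1.66 at 1 month and 7603, 759.9 and 189.7 CPM at 12 months, with a log2 fold change of 8.22 (SE 2.08, adjusted p 0.0388). The first was high in 12-month-old replicate 2 and the second in 12-month-old replicate 1, so each fold rests largely on 1 animal. Without the library labelled 1-month-old replicate 2 the adjusted p of TCONS_00061101 was 0.0602 by edgeR. These families hold near-identical copies among which counting can split reads, so the level of a single copy is uncertain.

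The remaining largest rises were not typical saliva proteins. LOC108634205, annotated as HRAS-like suppressor 3, a phospholipase, stood at 0.117, 0 and 0.0583 at 1 month and 53.5, 66.3 and 27.4 CPM at 12 months, a log2 fold change of 9.59 (SE 0.81, adjusted p 0.00598). LOC102182869, annotated as a primary amine oxidase, a copper enzyme that oxidises amines, stood at 25.1, 0.632 and 11.1 at 1 month and 2023, 1613 and 212 CPM at 12 months, a log2 fold change of 6.71 (SE 1.54, adjusted p 0.0301). DPP10, an inactive peptidase relative that modulates potassium channels, stood at 0.313, 0.0791 and 0.203 at 1 month and 18.2, 26.2 and 17.5 CPM at 12 months, a log2 fold change of 6.66 (SE 0.56, adjusted p 0.00598). Each of the 3 genes was higher in every 12-month-old library than in any 1-month-old library, which the choice of the largest rises required.

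Several saliva transcripts that were among the genes with the most counts did not pass with all 6 libraries, and some passed without the library labelled 1-month-old replicate 2. MUC19 had an adjusted p of 0.228 with all 6 libraries and a log2 fold change of 2.33 (SE 0.47, adjusted p 0.0106) without it. LOC102181752, the homolog of prolactin-inducible protein, a small secreted protein of saliva, stood at 3342, 3.44 and 3379 at 1 month and 37290, 42460 and 32590 CPM at 12 months, and its log2 fold change without that library was 3.41 (SE 0.29, adjusted p 0.000738). CA6, the carbonic anhydrase that is secreted into saliva, stood at 716, 1.38 and 19.7 at 1 month and 9670, 11090 and 5165 CPM at 12 months, and the same fit gave 4.50 (SE 1.46, adjusted p 0.0487). Each of these 3 genes was higher in all 12-month-old libraries than in all 1-month-old ones, and CA6 differed widely between 1-month-old replicates 1 and 3. LOC108633841, annotated as a zymogen granule protein 16 homolog B, a lectin-like secreted protein, stood at 13690, 9.88 and 6923 at 1 month and 34780, 49820 and 34520 CPM at 12 months. LATH, a BPI-fold relative, stood at 3937, 12.5 and 2633 at 1 month and 16520, 27870 and 19220 CPM at 12 months. TCONS_00080580, an uncharacterised gene, stood at 3060, 5.06 and 326 at 1 month and 37980, 21400 and 3267 CPM at 12 months. In LOC108633841 and LATH every 12-month-old library was higher than every 1-month-old one, and both passed without that library. In TCONS_00080580 the level of 12-month-old replicate 3 was close to that of 1-month-old replicate 1, and its adjusted p without the library labelled 1-month-old replicate 2 was 0.0775.

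Some abundant saliva genes did not differ in the test. TCONS_00019661, a mucin-7-like gene, stood at 20290, 3.12 and 10720 at 1 month and 21890, 10490 and 23260 CPM at 12 months. LOC102174664, annotated as a ribonuclease, stood at 9272, 1.78 and 5623 at 1 month and 789, 1279 and 6743 CPM at 12 months. LTF, which encodes the iron-binding protein lactoferrin, stood at 6.96, 12.9 and 409 at 1 month and 329, 13.9 and 7.54 CPM at 12 months. The ages overlapped in all 3 genes. The mucin and the ribonuclease were near 0 in the library labelled 1-month-old replicate 2, and lactoferrin was high in replicate 3 of 1 month and replicate 1 of 12 months only.

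Genes of immunoglobulin A and its export were higher in each 12-month-old library in 3 examples. PIGR, the receptor that carries polymeric IgA across the epithelium, stood at 879, 5.29 and 1056 at 1 month and 18000, 14090 and 14810 CPM at 12 months. JCHAIN, which joins IgA monomers, stood at 366, 4.11 and 885 at 1 month and 3061, 3027 and 2714 CPM at 12 months. The IgA heavy chain IGHA1 stood at 1208, 28.8 and 469 at 1 month and 21190, 17330 and 9590 CPM at 12 months. The ages did not overlap in these 3 genes. IGHA1 rose by 4.82 (SE 1.30, adjusted p 0.0466) on the log2 scale. PIGR passed only without the library labelled 1-month-old replicate 2, at 3.94 (SE 0.27, adjusted p 0.000458), as did JCHAIN. IGHG4, an IgG heavy chain, stood at 943, 61.9 and 10050 at 1 month and 584, 1887 and 3149 CPM at 12 months, with the ages overlapping and 1-month-old replicate 3 highest, and immunoglobulin copies can share reads. Of the 13 plasma cell and IgA export genes, 1 rose (near the 6.15% over all genes) and 0 fell. Under total counts 0 rose and 1 fell, and 5 rose by the exact test and 4 by DESeq2. Without the library labelled 1-month-old replicate 2, 8 passed as higher (21.1% over all genes). Median log2 fold changes with and without that library were 1.28 and 0.90. The gene that rose was CCR10, a chemokine receptor of IgA plasma cells, at 0.665, 0.158 and 0.174 at 1 month and 2.77, 1.87 and 2.65 CPM at 12 months. The list summed to 1717, 249 and 2555 at 1 month and 22570, 18680 and 19310 CPM at 12 months, most of it at 12 months PIGR, which epithelium makes. XBP1 and DERL3 of this list also stand on the list of endoplasmic reticulum genes. The part of plasma cell number in these levels was not tested.

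Genes for protein entry, folding and quality control in the endoplasmic reticulum had more rises than falls. Of 45 members, 15 rose (6.15% over all genes; 5 without 1-month-old replicate 1, and 5 without replicate 3) and 0 fell, with a median log2 fold change of 1.02, and without the library labelled 1-month-old replicate 2, 29 passed as higher (21.1% over all genes) and 0 as lower, with a median of 0.85. P4HB, the protein disulphide isomerase that forms disulphide bonds, stood at 425, 245 and 453 at 1 month and 1672, 1542 and 1907 CPM at 12 months. It rose by 2.19 (SE 0.38, adjusted p 0.0149) on the log2 scale. DERL2, which helps remove misfolded proteins, stood at 40.8, 23.1 and 34.4 at 1 month and 149, 194 and 176 CPM at 12 months and rose by 2.40 (SE 0.31, adjusted p 0.00867). In both genes all 12-month-old libraries were above all 1-month-old ones. SSR4, a subunit of the translocon-associated complex, stood at 137, 162 and 138 at 1 month and 382, 441 and 381 CPM at 12 months. SEL1L, the adaptor of the same disposal route as DERL2, stood at 162, 89.2 and 142 at 1 month and 665, 479 and 592 CPM at 12 months. These 2 genes also rose without overlap between ages. The chaperones HSP90B1 and CALR did not pass the test. HSP90B1, the endoplasmic reticulum form of HSP90, stood at 524, 232 and 1098 at 1 month and 1192, 865 and 1116 CPM at 12 months. The calcium-binding chaperone CALR stood at 470.2, 621 and 664 at 1 month and 1398, 712 and 1125 CPM at 12 months. HSP90B1 in 1-month-old replicate 3 lay within the 12-month-old range, and the lowest 12-month-old CALR value was barely above the highest 1-month-old one. XBP1, the transcription factor of the secretory programme, stood at 276, 31.7 and 246 at 1 month and 907, 1016 and 1195 CPM at 12 months, with a log2 fold change of 2.49 (SE 0.76, adjusted p 0.0628) and, without the library labelled 1-month-old replicate 2, 1.92 (SE 0.18, adjusted p 0.00102). Under total counts 5 members of the list rose and 0 fell.

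Genes of traffic from the endoplasmic reticulum to the Golgi and granules had rises and no falls. Of 39 members, 16 rose (6.15% over all genes) and 0 fell, with a median log2 fold change of 1.18. Rises numbered 3 without 1-month-old replicate 1, 2 without replicate 3 and 1 with the block. Without the library labelled 1-month-old replicate 2, 31 and 0 passed (21.1 and 22.5% over all genes), with a median of 1.01. TMED2 and TMED10 are p24 cargo receptors of transport vesicles. TMED2 stood at 298, 127 and 289.7 at 1 month and 929.8, 773 and 920.4 CPM at 12 months, a log2 fold change of 1.88 (SE 0.41, adjusted p 0.0267). TMED10 stood at 270, 134 and 255 at 1 month and 689, 569 and 666 CPM at 12 months. Both rose without overlap, as did TMED3 of the same family. SEC23B, a coat protein of vesicles that leave the endoplasmic reticulum, stood at 94.7, 70.8 and 77 at 1 month and 319, 252 and 304 CPM at 12 months, a log2 fold change of 1.85 (SE 0.27, adjusted p 0.0107). RAB27B, a small GTPase of secretory granules, stood at 209, 101 and 133 at 1 month and 422, 549 and 452 CPM at 12 months. These 2 genes and the cargo receptor SURF4 rose, and in each the 12-month-old libraries were above all the 1-month-old ones. LMAN1, a lectin that ferries glycoproteins, stood at 281, 46.2 and 236 at 1 month and 823, 690 and 849 CPM at 12 months and had an adjusted p of 0.0668 by edgeR with all libraries and 0.00161 without the library labelled 1-month-old replicate 2. With total counts 2 members rose.

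**Figure D3:**
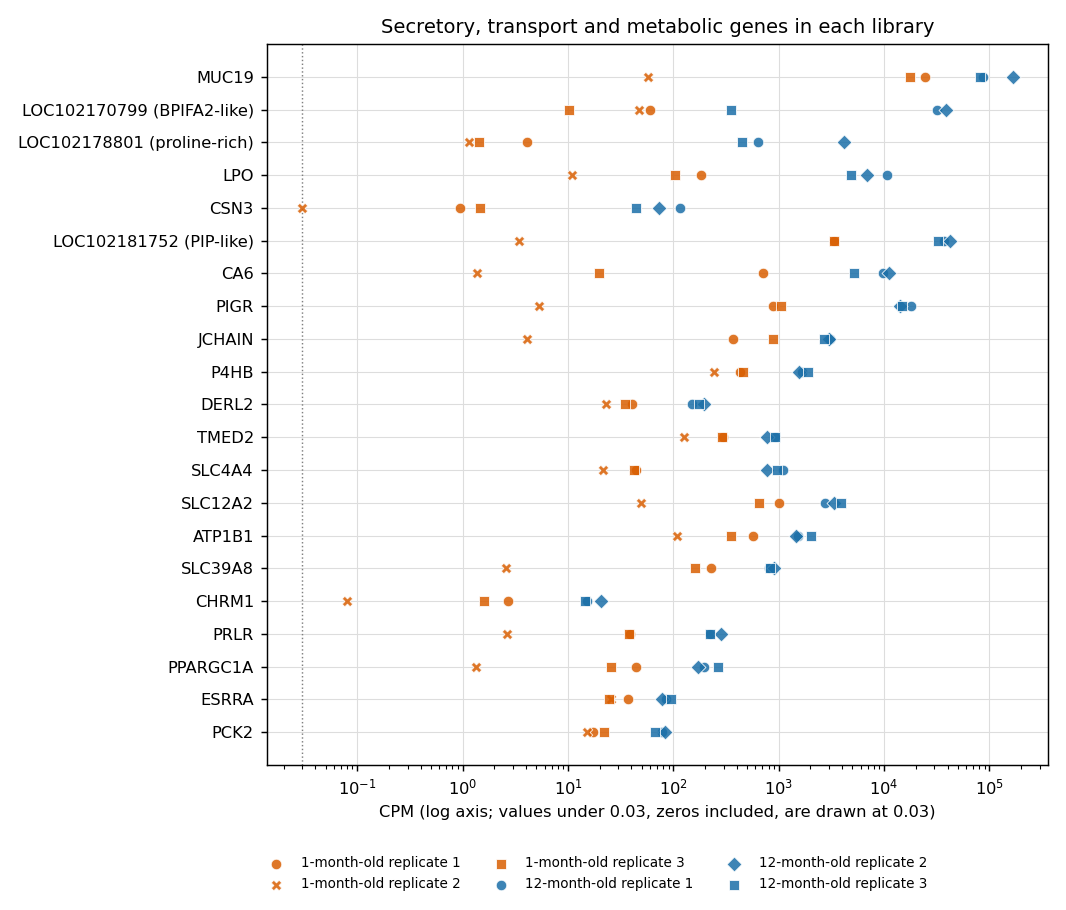
CPM (log axis) of 21 genes that were higher at 12 months, with 1 point per library and values under 0.03 drawn at 0.03. The library labelled 1-month-old replicate 2 is drawn with its own marker and lies lowest in most of the genes.

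Genes of protein glycosylation, most of them for mucin-type chains, had calls in both directions. Of 33 tested members, 7 rose and 5 fell (6.15 and 12.0% over all genes), with a median log2 fold change of 1.19. The counts were 1 and 3 without 1-month-old replicate 1, 0 and 4 without replicate 3, and 0 and 1 with the block. The exact test gave 12 and 5, and DESeq2 13 and 5. In all, 18 and 5 passed without the library labelled 1-month-old replicate 2 (21.1 and 22.5% over all genes), with a median of 0.86. GNE, the enzyme that starts sialic acid synthesis, stood at 198, 39 and 156 at 1 month and 647, 586 and 589 CPM at 12 months and rose by 2.21 (SE 0.59, adjusted p 0.0443) on the log2 scale. GALNT6 and GALNT1 attach the first sugar of mucin-type chains. GALNT6 stood at 136, 16.3 and 118 at 1 month and 530.1, 609 and 387 CPM at 12 months. GNE and both GALNT genes were higher in every 12-month-old library, and the GALNT genes passed the test only without that library. ST6GAL1, which adds sialic acid to N-linked chains, stood at 60.1, 145 and 64 at 1 month and 12.9, 9.41 and 9.02 CPM at 12 months, a log2 fold change of -3.10 (SE 0.44, adjusted p 0.0101). FUT8, which adds the core fucose to N-linked chains, stood at 155, 145 and 107 at 1 month and 39.5, 49.5 and 42.6 CPM at 12 months. Both fell without overlap between ages. The other falls were B3GNT3, which extends O-linked chains, GCNT4, which branches them, and C1GALT1, which makes their core disaccharide. Under total counts 1 member rose and 6 fell.

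Transporters of the acinar cell that load and release salt had calls in both directions. SLC4A4, a cotransporter of sodium and bicarbonate, stood at 43.9, 21.4 and 42.7 at 1 month and 1105, 775 and 959 CPM at 12 months, and it rose by 4.71 (SE 0.44, adjusted p 0.00598) on the log2 scale. Every 12-month-old library was far above every 1-month-old one, and the change without the library labelled 1-month-old replicate 2 was 4.38 (SE 0.22, adjusted p 0.000239). ATP1B1, the beta subunit of the sodium pump, stood at 565, 108 and 355 at 1 month and 1533, 1467 and 2008 CPM at 12 months and rose by 2.28 (SE 0.62, adjusted p 0.0464). FXYD3, a regulator of the pump, stood at 7.94, 2.57 and 10.1 at 1 month and 53.8, 71 and 42.5 CPM at 12 months and rose by 3.02 (SE 0.54, adjusted p 0.0158). In these pump genes no 1-month-old library reached a 12-month-old one. SLC12A2 passed only without that library, at a log2 fold change of 1.94 (SE 0.27, adjusted p 0.00338). STIM2, a calcium sensor of the endoplasmic reticulum, stood at 43.6, 38.8 and 40 at 1 month and 77.9, 91.3 and 75.1 CPM at 12 months. STIM2 and PLCB3, a phospholipase C of receptor signalling, rose. The 2 members that fell were AQP3 and ITPR2. AQP3, a water and glycerol channel, stood at 11.4, 42.5 and 20 at 1 month and 5.94, 5.79 and 6.81 CPM at 12 months. ITPR2, a calcium release channel, stood at 552, 531 and 332 at 1 month and 216, 215 and 192 CPM at 12 months. The ages did not overlap in either. Over the 29 members of the list, 5 rose and 2 fell (6.15 and 12.0% over all genes; 2 and 2 under total counts). Their median log2 fold change was 0.53. In all, 17 and 3 passed without the library labelled 1-month-old replicate 2 (21.1 and 22.5% over all genes), with a median of 0.80. The counts were 2 and 1 without 1-month-old replicate 1, 2 and 1 without replicate 3, and 1 and 0 with the block. The exact test gave 8 and 2, and DESeq2 10 and 2.

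Ductal transport genes were higher at 12 months in the members that passed with all 6 libraries. CA12, a membrane carbonic anhydrase, stood at 106, 9.13 and 100 at 1 month and 296, 363 and 386 CPM at 12 months. SCNN1A, a subunit of the sodium channel through which ducts take up sodium, stood at 101, 2.49 and 64.7 at 1 month and 213, 255 and 318 CPM at 12 months. Both were higher in each 12-month-old library and passed only without the library labelled 1-month-old replicate 2, SCNN1A at 1.59 (SE 0.26, adjusted p 0.00523). NEDD4L, the ubiquitin ligase that removes that channel, stood at 129, 250.3 and 83.8 at 1 month and 127, 153 and 113 CPM at 12 months, with the ages overlapping. The 4 members that rose were the phosphate cotransporter SLC34A2, the chloride channel CLCN2, the potassium channel KCNK1 and the carbonic anhydrase CA4. SLC34A2 stood at 1.25, 0.751 and 1.02 at 1 month and 4.76, 6.7 and 6.03 CPM at 12 months, a log2 fold change of 2.53 (SE 0.43, adjusted p 0.0142). None of the 4 overlapped between ages. Of 33 members 26 were tested, 4 rose (6.15% over all genes) and 0 fell, with a median log2 fold change of 1.80. Rises numbered 2 under total counts, 2 without 1-month-old replicate 1 and 1 without replicate 3. Without the library labelled 1-month-old replicate 2, 16 and 1 of 27 passed (21.1 and 22.5% over all genes), with a median of 1.28.

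Importers of amino acids and metals had calls in both directions. SLC39A8, an importer of zinc and manganese, stood at 228, 2.61 and 159.9 at 1 month and 804, 896 and 818 CPM at 12 months, and its log2 fold change was 2.04 (SE 0.20, adjusted p 0.0012) without the library labelled 1-month-old replicate 2. SLC31A1, the copper importer, stood at 114, 30.4 and 88.7 at 1 month and 343, 340.1 and 412 CPM at 12 months and rose by 2.23 (SE 0.50, adjusted p 0.0286). SLC1A5, a carrier of glutamine and other neutral amino acids, stood at 86, 53.3 and 60.3 at 1 month and 254, 266 and 319.5 CPM at 12 months and rose by 2.07 (SE 0.30, adjusted p 0.0106). These importers were higher in all 12-month-old libraries, and SLC38A1, another glutamine carrier, rose as well. SLC16A1, a carrier of lactate and other short acids, stood at 36.5, 35.1 and 31.2 at 1 month and 5.12, 5.07 and 5.44 CPM at 12 months and fell, with a log2 fold change of -2.72 (SE 0.25, adjusted p 0.00598). SLC7A11, the exchanger of cystine and glutamate, stood at 34.1, 19.5 and 15.4 at 1 month and 1.13, 4.58 and 1.76 CPM at 12 months and fell, with a log2 fold change of -3.21 (SE 0.63, adjusted p 0.0198). Both were higher in each 1-month-old library than in any 12-month-old library, the one labelled replicate 2 included. Of 22 tested members of this list, 3 rose and 3 fell (6.15 and 12.0% over all genes; 1 and 4 under total counts), the third fall being SLC7A8, an exchanger of neutral amino acids. The median log2 fold change was 0.94. Without that library 10 rises and 5 falls passed (21.1 and 22.5% over all genes), with a median of 0.91.

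Receptors through which nerves and hormones act on the gland were higher in part. CHRM1, a muscarinic acetylcholine receptor, stood at 2.7, 0.0791 and 1.6 at 1 month and 15.2, 20.8 and 14.7 CPM at 12 months and rose by 3.53 (SE 0.97, adjusted p 0.0487). CHRM3, the muscarinic receptor that drives fluid secretion, stood at 56.8, 0.237 and 41.1 at 1 month and 96.3, 122 and 129.7 CPM at 12 months, and it passed only without the library labelled 1-month-old replicate 2. In both receptors each 12-month-old library was above each 1-month-old one. VIPR1, a receptor of vasoactive intestinal peptide, stood at 15.8, 7.39 and 15.6 at 1 month and 30.6, 36.6 and 35.5 CPM at 12 months. VIPR1, the ATP-gated channel P2RX4 and GABRP, a subunit of GABA receptors, rose too, again without overlap. Of 15 tested autonomic receptors 4 rose and 0 fell (6.15% over all genes; 1 and 1 under total counts, 1 and 0 with upper-quartile factors). Their median log2 fold change was 1.40. In all, 6 and 1 passed without the library labelled 1-month-old replicate 2 (21.1 and 22.5% over all genes), with a median of 0.86. Rises numbered 1 without 1-month-old replicate 1, 0 without replicate 3 and 0 with the block. The exact test and DESeq2 each gave 4 rises and 1 fall.

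Among 17 hormone receptors, 1 rose (near the 6.15% over all genes; 0 with upper-quartile factors or total counts) and 0 fell. The median log2 fold change was 0.54. Without the library labelled 1-month-old replicate 2, 6 and 0 passed (21.1 and 22.5% over all genes). The median was then 0.20, which turns to -0.33 under total counts. The receptor that rose was INSR, the insulin receptor, at 258, 107 and 209.8 at 1 month and 493, 542 and 549 CPM at 12 months. PRLR, the prolactin receptor, stood at 38.5, 2.65 and 37.7 at 1 month and 222, 283 and 222 CPM at 12 months, with an adjusted p of 0.0507 with all libraries and a log2 fold change of 2.60 (SE 0.17, adjusted p 0.000416) without that library. INSR and PRLR did not overlap between ages, whereas the glucocorticoid receptor NR3C1, at 145, 70.1 and 143 at 1 month and 111, 152 and 128 CPM at 12 months, did.

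Of 27 genes for epithelial junctions and keratins, 9 rose (6.15% over all genes) and 0 fell, with a median log2 fold change of 1.92. Rises numbered 1 without 1-month-old replicate 3 and 0 with the block. Without the library labelled 1-month-old replicate 2, 25 and 0 passed (21.1 and 22.5% over all genes), with a median of 1.48. These genes summed to 1985, 1199 and 1410 at 1 month and 5003, 4970 and 4786 CPM at 12 months. KRT18, a keratin of simple epithelia, stood at 96.3, 77.2 and 54.3 at 1 month and 253, 212 and 299 CPM at 12 months and rose by 1.75 (SE 0.32, adjusted p 0.0165). SPINT2, an epithelial protease inhibitor, stood at 135, 61.8 and 102 at 1 month and 330.5, 351 and 346 CPM at 12 months and rose by 1.78 (SE 0.35, adjusted p 0.0201). CDH1, which encodes E-cadherin, stood at 232, 244 and 166 at 1 month and 505, 522 and 498 CPM at 12 months. These 3 genes were higher in every 12-month-old library, and CDH1 was not low in the library labelled 1-month-old replicate 2. KRT8, the partner of KRT18, was not low there either, at 249, 344 and 165 at 1 month and 537, 457 and 537 CPM at 12 months. The desmosome gene DSP, the membrane protease ST14 and AP1M2, a sorting adaptor of epithelial cells, rose without overlap. With total counts 1 of the 27 rose, and 23 passed without the library labelled 1-month-old replicate 2.

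**Figure D4:**
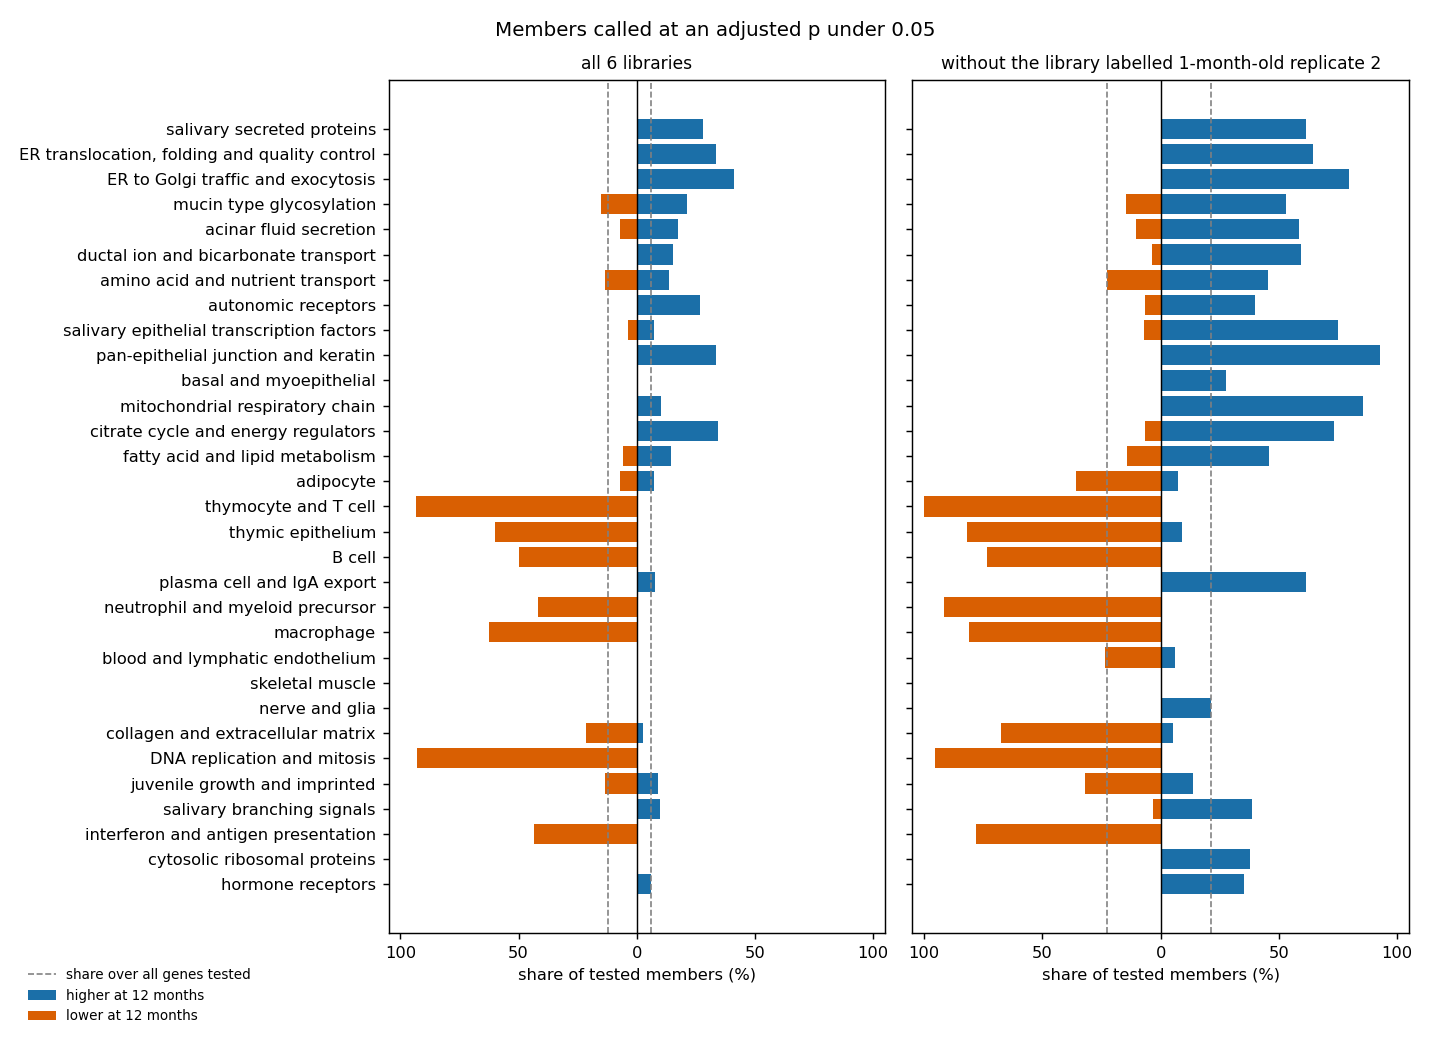
Share of the tested members of 31 gene lists that were called higher or lower at 12 months (percent), with all 6 libraries on the left and without the library labelled 1-month-old replicate 2 on the right. Dashed lines give the share over all tested genes, 6.15% and 12.0% on the left and 21.1% and 22.5% on the right.

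Most transcription factors of the salivary epithelium passed as higher only without the library labelled 1-month-old replicate 2. EHF, an ETS factor of epithelia, stood at 313, 1.58 and 224 at 1 month and 883, 1022 and 868 CPM at 12 months, with a log2 fold change without that library of 1.72 (SE 0.20, adjusted p 0.00201). TFCP2L1, a factor of salivary ducts, stood at 325, 2.69 and 219 at 1 month and 597, 736 and 783 CPM at 12 months. SOX10, a factor of acinar and myoepithelial cells and of glia, stood at 149.8, 1.03 and 109 at 1 month and 364, 311 and 375 CPM at 12 months. All 3 were near 0 in the library labelled 1-month-old replicate 2 and higher in each 12-month-old library than in 1-month-old replicates 1 and 3. The 2 factors that rose with all libraries were PAX9, at 70.8, 26.8 and 51.2 at 1 month and 143, 148 and 126 CPM at 12 months, and HES1, a target of Notch signalling. MYB, a factor of progenitor cells that thymocytes also express, was an exception, at 231, 394 and 115 at 1 month and 2, 0.966 and 0.98 CPM at 12 months, and it fell with a log2 fold change of -7.54 (SE 0.68, adjusted p 0.00598). Of 28 tested factors 2 rose (near the 6.15% over all genes, and 0 with upper-quartile factors or total counts) and 1 fell. The median log2 fold change was 1.91. Without the library labelled 1-month-old replicate 2, 21 and 2 passed (21.1 and 22.5% over all genes), with a median of 1.36. Of 18 genes of basal and myoepithelial cells, 0 rose and 0 fell in edgeR (2 at an unadjusted p under 0.05, 0 by the exact test and 0 by DESeq2), with a median of 0.83. Without that library, 5 rises passed (21.1% over all genes), with a median of 0.42 that turns to -0.11 under total counts. MYH11, a smooth muscle myosin that myoepithelial cells make, stood at 179.5, 7.98 and 172 at 1 month and 289, 398 and 442 CPM at 12 months. Smooth muscle actin ACTA2 stood at 184, 48.1 and 144 at 1 month and 167, 206 and 298 CPM at 12 months. MYH11 did not overlap between ages, and ACTA2 did.

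Most genes of the mitochondrial respiratory chain passed as higher only without the library labelled 1-month-old replicate 2. Of 48 members, 5 rose (6.15% over all genes) and 0 fell with all libraries, with a median log2 fold change of 0.64. Without that library 41 and 0 passed (21.1 and 22.5% over all genes), with a median of 0.80. Their summed level was 2683, 3447 and 2351 at 1 month and 4241, 4485 and 5255 CPM at 12 months. The library labelled 1-month-old replicate 2 was the highest of the 1-month-old libraries in this sum, and all 12-month-old libraries were above it. NDUFA4, a subunit of the chain, stood at 103, 74.5 and 89.6 at 1 month and 215, 207 and 234 CPM at 12 months and rose by 1.30 (SE 0.26, adjusted p 0.0202). ATP5F1A, the alpha subunit of ATP synthase, stood at 252, 250.4 and 204 at 1 month and 458, 446 and 532 CPM at 12 months and rose by 1.02 (SE 0.27, adjusted p 0.044). Neither overlapped between ages. COX4I1, a subunit of cytochrome oxidase, stood at 132, 325 and 133 at 1 month and 259.6, 278 and 313 CPM at 12 months, and here the library labelled 1-month-old replicate 2 lay above the 12-month-old libraries. The mitochondrial gene MT-CO1, with 10110, 7456 and 7060 at 1 month and 19220, 28770 and 23960 CPM at 12 months, passed only without that library, at 1.41 (SE 0.31, adjusted p 0.0131). Under total counts the 5 calls with all libraries were lost, and 2 members passed without that library. Rises numbered 1 without 1-month-old replicate 1, 0 without replicate 3, 0 with the block and 2 with upper-quartile factors. The exact test gave 11 rises and DESeq2 14.

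Citrate cycle genes and the regulators of energy metabolism were higher at 12 months in the members that passed with all 6 libraries. Of 29 tested, 10 rose (6.15% over all genes) and 0 fell, with a median log2 fold change of 0.90. Rises numbered 5 without 1-month-old replicate 1, 3 without replicate 3 (with 1 fall) and 2 with the block. The fit without the library labelled 1-month-old replicate 2 passed 22 and 2 of 30 (21.1 and 22.5% over all genes). Its median was 0.99. PCK2, the mitochondrial enzyme that makes phosphoenolpyruvate, stood at 17.4, 15 and 21.9 at 1 month and 78, 82.5 and 67 CPM at 12 months and rose by 2.07 (SE 0.26, adjusted p 0.0081). ESRRA, a nuclear receptor that drives mitochondrial genes, stood at 37, 25.5 and 24.8 at 1 month and 85.2, 78.7 and 94.7 CPM at 12 months and rose by 1.57 (SE 0.27, adjusted p 0.0145). ME1, the cytosolic malic enzyme, stood at 8.09, 2.96 and 4.71 at 1 month and 28.5, 31.2 and 21.9 CPM at 12 months. These genes and SLC25A4, the carrier that exchanges ADP and ATP, rose without overlap between ages. PPARGC1A, the coactivator that works with ESRRA (chosen after its values were seen), stood at 44.1, 1.34 and 25.5 at 1 month and 195, 172 and 267 CPM at 12 months, with a log2 fold change of 2.53 (SE 0.31, adjusted p 0.00226) without that library. The citrate synthase CS, at 124, 231 and 119 at 1 month and 249, 212 and 314 CPM at 12 months, overlapped between ages with that library and did not overlap without it. Under total counts 2 members rose and 1 fell.

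Lipid genes had few calls. Of 35 tested members, 5 rose and 2 fell (6.15 and 12.0% over all genes; 0 and 4 under total counts), with a median log2 fold change of 0.45. The counts were 1 and 1 without 1-month-old replicate 1, 0 and 1 without replicate 3, and 0 and 1 with the block. The exact test gave 7 and 3, and DESeq2 8 and 3. In all, 16 and 5 passed without the library labelled 1-month-old replicate 2 (21.1 and 22.5% over all genes). The median was then 0.51, which turns to -0.02 under total counts. SQLE, an enzyme of cholesterol synthesis, stood at 40.8, 17.2 and 34.2 at 1 month and 89.2, 189 and 100.2 CPM at 12 months and rose by 2.04 (SE 0.46, adjusted p 0.0281). ACSL3, which activates fatty acids, stood at 127, 60.2 and 78.1 at 1 month and 235, 241 and 212 CPM at 12 months. ACSL3 and ETFDH, which passes electrons from fatty acid oxidation to the respiratory chain, rose as well, and none of the 3 overlapped between ages. ELOVL5, which lengthens polyunsaturated fatty acids, stood at 27.7, 37.6 and 39 at 1 month and 9.61, 4.95 and 6.52 CPM at 12 months and fell, with a log2 fold change of -2.31 (SE 0.35, adjusted p 0.011). DGAT2, which makes triglyceride (chosen after its values were seen), stood at 35.9, 7.07 and 21.7 at 1 month and 2.27, 5.85 and 3.67 CPM at 12 months and fell as well. FASN, the fatty acid synthase, stood at 311, 339 and 285 at 1 month and 238, 252 and 255 CPM at 12 months, without overlap but with an adjusted p of 0.357.

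Cytosolic ribosomal proteins, 53 genes, had 0 rises and 0 falls in edgeR's quasi-likelihood test (4 at an unadjusted p under 0.05, 0 by the exact test and 3 higher by DESeq2). They had 20 rises without the library labelled 1-month-old replicate 2 (21.1% over all genes). Their medians of 0.28 and 0.38 turn to -0.15 and -0.14 under total counts, so no direction is given for them. Their summed level was 23250, 31610 and 22870 at 1 month and 33980, 30070 and 33190 CPM at 12 months. Among the genes with the most counts, the elongation factor EEF1A1 stood at 8438, 6583 and 7347 at 1 month and 15510, 13020 and 13930 CPM at 12 months. The cytoskeletal actin ACTB stood at 1766, 10340 and 2776 at 1 month and 1190, 797 and 1119 CPM at 12 months. ACTB was highest in the library labelled 1-month-old replicate 2, and it was higher in each 1-month-old library than in each 12-month-old one.

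Almost all thymocyte genes fell. Of 30 genes of thymocytes and T cells, 28 fell and 0 rose (background 12.0% for falls) with a median log2 fold change of -7.67, and without the library labelled 1-month-old replicate 2 all 30 passed as lower (background 22.5%), with a median of -6.42. Their summed level was 6143, 25610 and 3384 at 1 month and 82.9, 80.4 and 95.5 CPM at 12 months, with RAG1 the gene with the most counts at 1 month. The highest level was that of the library labelled 1-month-old replicate 2, 1-month-old replicates 1 and 3 held less but much more than any 12-month-old library, and the 12-month-old libraries were alike. Thymocytes rearrange antigen receptors with RAG1 and RAG2, and RAG2 stood at 261, 323 and 118 at 1 month and 0, 0 and 0.0977 CPM at 12 months, a pooled level 6539 times as high at 1 month (95% counting interval 1810 to 54000, adjusted p 0.00598). DNTT, the enzyme that adds bases at the receptor joints, stood at 171, 177 and 70.1 at 1 month and 0.0908, 0 and 0 CPM at 12 months, a pooled level 3898 times as high at 1 month (95% counting interval 1079 to 32190, adjusted p 0.00598). ARPP21, a phosphoprotein of developing thymocytes, stood at 151, 337 and 67.8 at 1 month and 0.136, 0.121 and 0.0492 CPM at 12 months. These 3 genes had 0 or a few counts in each 12-month-old library. TCF7, a transcription factor of T cells, stood at 438, 3266 and 279 at 1 month and 3.36, 3.98 and 2.64 CPM at 12 months. The co-receptor chain CD8B stood at 251, 1711 and 124 at 1 month and 0.998, 0.121 and 1.32 CPM at 12 months. CD3G, a chain of the T cell receptor complex, stood at 167, 139.6 and 95.3 at 1 month and 1.72, 1.87 and 1.81 CPM at 12 months, a log2 fold change of -6.21 (SE 0.35, adjusted p 0.00598). Each was far lower in every 12-month-old library, and CD3G and DNTT were about as high in 1-month-old replicate 1 as in the library labelled 1-month-old replicate 2. The part of thymocytes in other differences between the ages was not tested.

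Markers of the thymic epithelium, the stroma in which thymocytes mature, moved with them. Of 10 tested genes, 6 fell (12.0% over all genes) and 0 rose. Their median log2 fold change was -6.63 (-4.17 with genes at 0 set to their bound). In all, 9 falls and 1 rise of 11 passed without the library labelled 1-month-old replicate 2 (22.5 and 21.1% over all genes). The median was then -5.39. FOXN1, the transcription factor that defines this epithelium, stood at 16.6, 89.9 and 5.81 at 1 month and 0.0451, 0.0601 and 0 CPM at 12 months, a pooled level 1003 times as high at 1 month (95% counting interval 278 to 8289, adjusted p 0.0117) and 309 times without that library. PRSS16, a protease of its cortex, stood at 90.3, 324 and 36.2 at 1 month and 0, 0.0601 and 0.0492 CPM at 12 months. CCL25, a chemokine that draws thymocytes, stood at 74, 366 and 29.2 at 1 month and 1.24, 0.878 and 2.79 CPM at 12 months. These 3 genes and the factor PAX1 fell without overlap between ages. PSMB11, a proteasome subunit found in this epithelium, stood at 2.03, 6.91 and 0.901 at 1 month and 0, 0 and 0 CPM at 12 months and was at least 21.2-fold lower at 12 months (9.49 without that library). AIRE, the regulator of self-antigens, stood at 0.352, 2.41 and 0.145 at 1 month and 0, 0 and 0 CPM at 12 months. Both were at 0 in the 12-month-old libraries. The list summed to 390.1, 1051 and 215 at 1 month and 236, 262 and 201 CPM at 12 months, and in the 12-month-old libraries the sum came from SIX4 and CTSV, neither of which fell. SIX4, with the most counts of the list at 12 months, stood at 56.6, 6 and 48.4 at 1 month and 134, 157 and 143 CPM at 12 months, and at 1 month CTSV was above it in each library. Their part in the other falls was not tested.

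The other largest falls had the same pattern over libraries, high in the library labelled 1-month-old replicate 2, lower in the other 1-month-old libraries and near 0 at 12 months, with exceptions named here. The largest falls were also chosen for no overlap between ages. SLIT1, a secreted guidance protein, stood at 409, 2141 and 187 at 1 month and 0.0908, 0 and 0.147 CPM at 12 months, a log2 fold change of -13.33 (SE 1.57, adjusted p 0.00713). TBATA, a gene of thymic stroma, stood at 99.1, 456 and 35.1 at 1 month and 0, 0 and 0.0492 CPM at 12 months, a pooled level 10590 times as high at 1 month (95% counting interval 1900 to 418300, adjusted p 0.00796) and 3671 times without the library labelled 1-month-old replicate 2. GGT5, a gamma-glutamyltransferase, stood at 12.9, 73.3 and 12.2 at 1 month and 0, 0 and 0 CPM at 12 months, which is at least 212-fold lower at 12 months (81 without that library). These 3 genes had 0 or a few counts in each 12-month-old library. TCONS_00008954, annotated as CD1b-3, a lipid antigen presenter, stood at 79.4, 25.5 and 21.3 at 1 month and 0, 0 and 0 CPM at 12 months (at least 272-fold lower), and was highest in 1-month-old replicate 1. LOC102173052, a butyrophilin-like gene, stood at 47.7, 50 and 15.6 at 1 month and 0, 0 and 0 CPM at 12 months (at least 244-fold lower). LOC102170172, a cationic amino acid transporter 3-like gene, stood at 40.9, 56.9 and 15.3 at 1 month and 0, 0 and 0 CPM at 12 months (at least 244-fold lower). These 3 genes were at 0 in every 12-month-old library, and the butyrophilin-like gene was about as high in 1-month-old replicate 1 as in the library labelled 1-month-old replicate 2. LOC102180106, a T cell receptor beta variable gene, stood at 20.8, 53.2 and 6.31 at 1 month and 0, 0 and 0 CPM at 12 months (at least 173-fold lower, or 87.8 without that library). LOC102180785, annotated as proteoglycan 3-like, a granule protein of eosinophils, stood at 3.11, 31.1 and 409 at 1 month and 0.0451, 0 and 0 CPM at 12 months and was highest in 1-month-old replicate 3. Copies of CD1 and of receptor variable genes can share reads, so the level of a single copy is uncertain.

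Genes of DNA replication and cell division fell almost throughout. Of 43 members, 40 fell (12.0% over all genes) and 0 rose, with a median log2 fold change of -4.13. Leaving out the library labelled 1-month-old replicate 2 gave 41 and 0 (22.5% over all genes for falls), with a median of -3.49. The summed level was 3242, 8905 and 2671 at 1 month and 347, 414 and 335 CPM at 12 months. It was highest in the library labelled 1-month-old replicate 2, but the other libraries of 1 month were also far above each 12-month-old library. MKI67, a protein of dividing cells, stood at 424, 2096 and 424 at 1 month and 12.8, 19.3 and 9.26 CPM at 12 months, a log2 fold change of -6.15 (SE 0.88, adjusted p 0.0104). TOP2A, the topoisomerase that untangles DNA before division, stood at 479, 419 and 329 at 1 month and 8.39, 12.7 and 5.19 CPM at 12 months, a log2 fold change of -5.54 (SE 0.47, adjusted p 0.00598). TOP2A was highest in 1-month-old replicate 1, and its change was -5.60 (SE 0.41, adjusted p 0.000514) without the library labelled 1-month-old replicate 2. RRM2, a subunit of the enzyme that makes DNA building blocks, stood at 91.5, 205 and 94.7 at 1 month and 4.17, 6.52 and 3.48 CPM at 12 months. UHRF1, which helps copy DNA methylation after replication, stood at 196, 784 and 126 at 1 month and 6.67, 7.3 and 6.42 CPM at 12 months. CENPF, a kinetochore protein, stood at 153, 153 and 132 at 1 month and 3.49, 6.76 and 2.35 CPM at 12 months. All of these and GINS1, a part of the replicative helicase, fell without overlap, and CENPF was similar in the 3 libraries of 1 month. Thymocytes divide too, and the levels of gland cells and thymocytes cannot be told apart here.

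**Figure D5:**
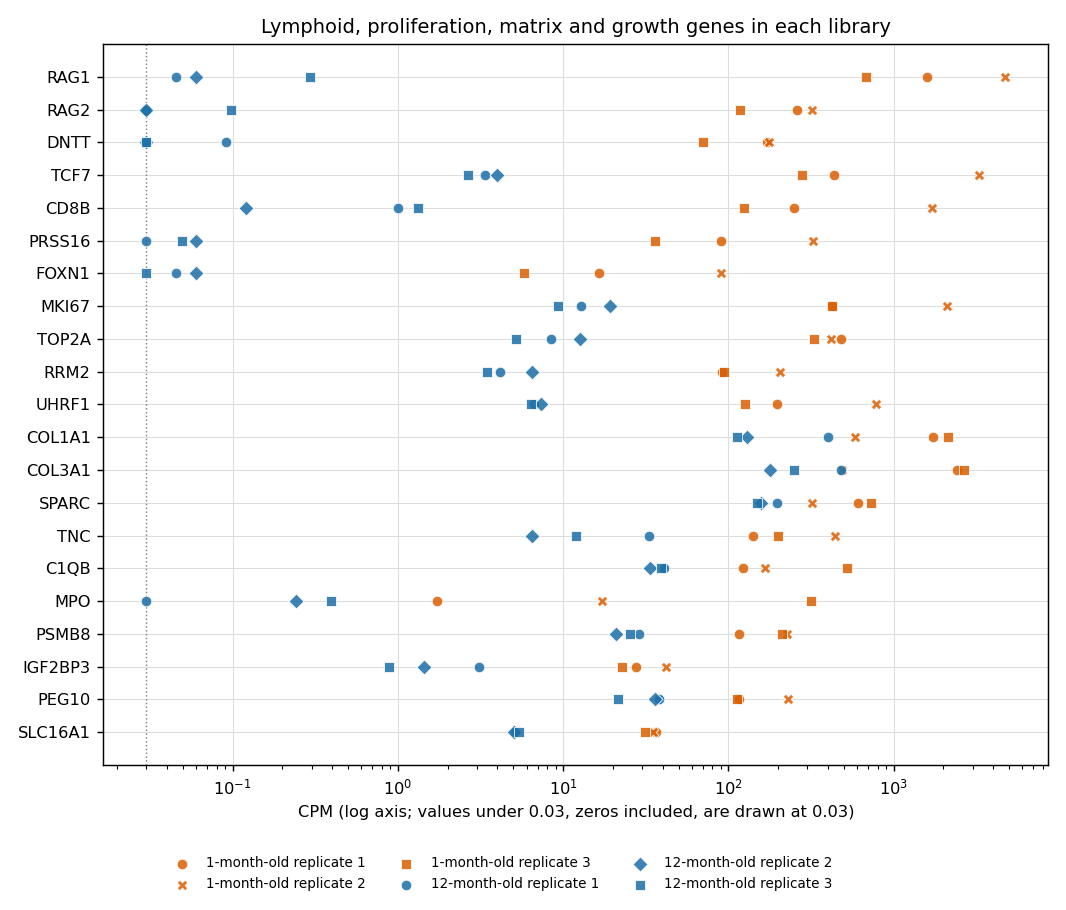
CPM (log axis) of 21 genes that were lower at 12 months, with 1 point per library and values under 0.03 drawn at 0.03. RAG1 lies at 681 CPM or more in each library of 1 month and at 0.294 CPM or less in each library of 12 months.

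Some collagen and other matrix genes fell, and in most examples 1-month-old replicates 1 and 3 were the highest libraries. Of 37 members, 8 fell and 1 rose (12.0 and 6.15% over all genes; 18 and 0 under total counts), with a median log2 fold change of -1.11. Without the library labelled 1-month-old replicate 2, 25 falls and 2 rises passed (22.5 and 21.1% over all genes), with a median of -1.35. In turn, 4 fell without 1-month-old replicate 1, 1 without 1-month-old replicate 3 and 2 with the block. COL1A1, a chain of fibrillar collagen type I, stood at 1726, 584 and 2129 at 1 month and 400.5, 129.8 and 113 CPM at 12 months and fell, with a log2 fold change of -2.79 (SE 0.72, adjusted p 0.0412). COL3A1, the chain of collagen type III, stood at 2407, 487 and 2666 at 1 month and 481, 177 and 248 CPM at 12 months, with an adjusted p of 0.0519 and, without the library labelled 1-month-old replicate 2, a log2 fold change of -3.14 (SE 0.42, adjusted p 0.00294). COL1A2, the other chain of type I, stood at 1137, 262 and 1298 at 1 month and 297, 118 and 90.3 CPM at 12 months. In all 3 the levels of 1-month-old replicates 1 and 3 were several times those at 12 months, and in COL1A2 the library labelled 1-month-old replicate 2 lay among the 12-month-old libraries. SPARC, a collagen-binding matrix protein, stood at 606, 320.4 and 734 at 1 month and 196, 158 and 148 CPM at 12 months and fell, with a log2 fold change of -1.73 (SE 0.39, adjusted p 0.0284). ELN, which encodes elastin, stood at 72.5, 35.7 and 100.5 at 1 month and 19.2, 9.29 and 9.06 CPM at 12 months. TNC, a matrix protein of growing tissue, stood at 141, 439 and 199.7 at 1 month and 33.2, 6.46 and 12 CPM at 12 months, a log2 fold change of -3.92 (SE 0.77, adjusted p 0.0199). SPARC, ELN, TNC and FBN2, a fibrillin of early elastic fibres, fell without overlap, and TNC alone of them was highest in the library labelled 1-month-old replicate 2. The member that rose was COL18A1, a basement membrane collagen (chosen after its values were seen), at 81.2, 86.4 and 64.9 at 1 month and 155, 132 and 175 CPM at 12 months.

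Most macrophage genes fell, and their summed level was highest in 1-month-old replicate 3. Of 16 members, 10 fell (12.0% over all genes) and 0 rose, with a median log2 fold change of -2.47. The fit without the library labelled 1-month-old replicate 2 gave 13 and 0 (22.5% over all genes for falls). Its median was -2.63. Without 1-month-old replicate 3, 5 fell, with a median of -1.83. The 16 genes summed to 646, 779 and 2490 at 1 month and 303, 242 and 241 CPM at 12 months. C1QB, a chain of the complement starter C1q, stood at 122, 165 and 525 at 1 month and 40.5, 33.4 and 39.2 CPM at 12 months, a log2 fold change of -2.85 (SE 0.60, adjusted p 0.0237). CD68, a lysosomal protein of macrophages, stood at 23.7, 70.5 and 71.5 at 1 month and 7.75, 7.06 and 6.37 CPM at 12 months, a log2 fold change of -2.97 (SE 0.47, adjusted p 0.0121). Both fell without overlap, as did C1QA, C1QC, CSF1R, the receptor of a macrophage growth factor, and FCER1G, an Fc receptor chain. Whether fewer macrophages or other cells account for this was not tested.

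Neutrophil and myeloid precursor genes were carried mainly by 1-month-old replicate 3. Of 12 tested genes of 16, 5 fell (12.0% over all genes) and 0 rose, with a median log2 fold change of -6.00. Leaving out the library labelled 1-month-old replicate 2 gave 11 and 0 (22.5% over all genes for falls), with a median of -6.25. Without 1-month-old replicate 3, 3 fell, with a median of -3.12. MPO, the peroxidase of neutrophil granules, stood at 1.72, 17.1 and 316 at 1 month and 0, 0.241 and 0.392 CPM at 12 months, a log2 fold change of -9.04 (SE 2.28, adjusted p 0.0384). CSF3R, the receptor of a neutrophil growth factor, stood at 4.61, 17.6 and 46 at 1 month and 1.18, 0.784 and 0.245 CPM at 12 months. S100A12, a calcium-binding protein of neutrophils, stood at 2.03, 9.96 and 350.3 at 1 month and 3.49, 0.423 and 0.49 CPM at 12 months. All 3 were highest in 1-month-old replicate 3, and MPO and CSF3R fell, as did the proteases ELANE and MMP9. The list summed to 202, 258 and 1993 at 1 month and 450.3, 139 and 113 CPM at 12 months. LYST, a gene of lysosome traffic in many cells, had the most counts in 4 libraries, LTF had more in replicate 3 of 1 month and replicate 1 of 12 months, and the granule genes PRTN3, AZU1, CTSG and MMP8 and the factor CEBPE were at 0 in the 12-month-old libraries. LTF stands on this list and on that of secreted proteins. The part of these cells was not tested.

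Some B cell genes fell as well. Of 14 tested genes, 7 fell (12.0% over all genes) and 0 rose, with a median log2 fold change of -3.23. The fit without the library labelled 1-month-old replicate 2 gave 11 and 0 of 15 (22.5% over all genes for falls). Its median was -3.37. Leaving out 1-month-old replicate 3 gave 6 falls and a median of -2.24. CD79A, a chain of the B cell receptor, stood at 33.9, 294 and 35.7 at 1 month and 11.3, 11.7 and 10.5 CPM at 12 months. PAX5, the factor that fixes B cell identity, stood at 6.53, 12.7 and 35 at 1 month and 0.952, 0.905 and 0.245 CPM at 12 months. Both fell without overlap, as did the surface proteins MS4A1 and CD22 and the factor SPIB. The IgE receptor FCER2 stood at 9.78, 84.1 and 20.3 at 1 month and 10.8, 13.1 and 17.1 CPM at 12 months. FCER2 overlapped between ages and passed neither with nor without the library labelled 1-month-old replicate 2. The complement receptor CR2 also overlapped, and it passed as lower only without that library. All 15 genes summed to 154, 476 and 408 at 1 month and 53.8, 53.4 and 53 CPM at 12 months, CD79A had the highest mean over the 6 libraries, and the part of B cells was not tested.

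Some interferon and antigen presentation genes fell. Of 23 tested members, 10 fell (12.0% over all genes) and 0 rose, with a median log2 fold change of -2.49. The fit without the library labelled 1-month-old replicate 2 gave 18 and 0 (22.5% over all genes for falls). Its median was -2.53. Leaving out 1-month-old replicate 3, where some interferon genes were highest, gave 9 falls and a median of -1.22. PSMB8, a subunit of the immunoproteasome, stood at 115, 226 and 212 at 1 month and 28.8, 21 and 25.5 CPM at 12 months, a log2 fold change of -2.88 (SE 0.36, adjusted p 0.00796). IRF1, a transcription factor induced by interferon, stood at 57.2, 142 and 91.7 at 1 month and 16, 10.7 and 13.9 CPM at 12 months. CD74, the chaperone of MHC class II, stood at 596, 2517 and 1131 at 1 month and 239.6, 250.3 and 267 CPM at 12 months. All 3 fell without overlap, as did PSMB9 and TAP1, the peptide transporter of antigen presentation. B2M, the light chain of MHC class I, stood at 350.2, 484 and 619.6 at 1 month and 419.6, 393 and 359.8 CPM at 12 months with the ages overlapping.

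Growth factors of young tissue and imprinted genes had few calls. IGF2BP3, an RNA-binding protein of fetal tissue, stood at 27.4, 41.8 and 22.6 at 1 month and 3.08, 1.45 and 0.882 CPM at 12 months and fell, with a log2 fold change of -4.08 (SE 0.56, adjusted p 0.00936). PEG10, an imprinted gene, stood at 116, 230.3 and 113 at 1 month and 38, 35.9 and 21.4 CPM at 12 months and fell, with a log2 fold change of -2.27 (SE 0.41, adjusted p 0.0161). These genes and IGFBP3, a carrier of insulin-like growth factors that fell too, were higher in each 1-month-old library. IGF1R, the receptor of insulin-like growth factor 1, stood at 198, 146 and 159 at 1 month and 477, 386 and 374 CPM at 12 months and rose by 1.30 (SE 0.28, adjusted p 0.0258), as INSR did. Of 22 tested members 2 rose and 3 fell (near the 6.15 and 12.0% over all genes), with a median log2 fold change of -0.50, and 3 and 7 (21.1 and 22.5% over all genes) passed without the library labelled 1-month-old replicate 2, with a median of -0.54. LIN28A, HMGA2 and ZIM2 had 0 counts in the 6 libraries.

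Signals of salivary branching, which shape the gland before birth, had few calls. Of 31 tested members, 3 rose and 0 fell (6.15% over all genes; 0 and 2 under total counts), with a median log2 fold change of 0.68. Without the library labelled 1-month-old replicate 2, 12 and 1 passed (21.1 and 22.5% over all genes). The median was then 0.37, which turns to -0.16 under total counts. FGFR2, the receptor of branching fibroblast growth factors, stood at 49.8, 30.5 and 34.8 at 1 month and 99.9, 115 and 129 CPM at 12 months. EGFR, the epidermal growth factor receptor, stood at 123, 74.4 and 89.9 at 1 month and 223, 186 and 289 CPM at 12 months. Both rose without overlap between ages, as did the ligand BMP7. ERBB2, a partner of EGFR, stood at 92.6, 8.89 and 69.1 at 1 month and 216, 262 and 217 CPM at 12 months, also without overlap, and passed only without that library.

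Of 14 tested adipocyte genes, 1 rose and 1 fell (6.15 and 12.0% over all genes), with a median log2 fold change of -1.55, and 1 and 5 (21.1 and 22.5% over all genes) passed without the library labelled 1-month-old replicate 2, with a median of -2.16 (-0.64 without 1-month-old replicate 3). The rise was GPD1, an enzyme of glycerol metabolism that other cells share. The fall was UCP1, the uncoupling protein of brown fat, at 2.19, 4.11 and 1.19 at 1 month and 0, 0 and 0 CPM at 12 months, at least 16.1-fold lower. ADIPOQ, the defining hormone of fat, with the highest mean of the list, stood at 91.3, 2.84 and 185 at 1 month and 13.3, 70.3 and 12.2 CPM at 12 months. The list summed to 322, 88.7 and 584 at 1 month and 170.5, 282 and 178 CPM at 12 months. The ages overlapped in ADIPOQ and in the sum, and LPL and LIPE of this list are also lipid genes. Of 17 endothelial genes 0 rose and 0 fell in edgeR (4 at an unadjusted p under 0.05, 1 higher and 2 lower both by the exact test and by DESeq2), with a median of -0.62. In all, 1 and 4 passed without the library labelled 1-month-old replicate 2 (21.1 and 22.5% over all genes), with a median of -0.69. The median was 0.07 without 1-month-old replicate 3. VWF, a clotting protein with the highest mean of the list, stood at 204, 200 and 196 at 1 month and 172, 114 and 104 CPM at 12 months. The list summed to 714, 535 and 1078 at 1 month and 772, 517 and 543 CPM at 12 months, with the ages overlapping.

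Nerve and glia genes gave 0 rises and 0 falls among 14 tested in edgeR (0 at an unadjusted p under 0.05, 0 by the exact test and 0 by DESeq2), with a median log2 fold change of 0.36. They gave 3 rises without the library labelled 1-month-old replicate 2 (near the 21.1% over all genes), with a median of 0.23. The medians of 0.36 and 0.23 turn to -0.06 and -0.28 under total counts. Their sum was 398, 98 and 298 at 1 month and 755, 771 and 745 CPM at 12 months, most of it at 12 months SOX10 and ERBB3, which salivary epithelium expresses and epithelial lists hold. Skeletal muscle genes gave 0 calls among 13 tested in edgeR (0 at an unadjusted p under 0.05, 0 by the exact test and 0 by DESeq2) and 0 of 15 without the library labelled 1-month-old replicate 2. Their medians of 0.55 and 0.33 turn to -0.03 and -0.30 under total counts, and the first turns to -3.20 without 12-month-old replicate 2. Their sum was 336, 126 and 169.8 at 1 month and 139, 504 and 118 CPM at 12 months, NEB had the highest mean, and TTN was above it in replicate 1 of 1 month and replicate 2 of 12 months. In this list the muscle regulators MYOD1 and MYOG were at 0 in the 12-month-old libraries. Of 10 erythroid genes 3 were tested, with median log2 fold changes of -3.74 and, without the library labelled 1-month-old replicate 2, -2.35. The 10 genes summed to 135, 114 and 116 at 1 month and 189, 142 and 228 CPM at 12 months, most of it TFRC, the transferrin receptor of many cell types. Alpha globin (HBA) stood at 1.27, 15.2 and 2.42 at 1 month and 0, 0.664 and 0.49 CPM at 12 months, and ALAS2, SLC4A1 and EPB42 were at 0 in the 12-month-old libraries. The part of these cell types in other results was not tested.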

How the data were processed

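Gland RNA of 9 goats was sequenced. By the submitters' notes, reads were filtered with Bowtie2 2.2.8 and aligned with TopHat2 2.1.1, transcripts were assembled with Cufflinks, and RSEM gave the counts. The genome build is not given in the sources used here. The deposited table of the authors holds expected counts for 52739 transcripts, each multiplied by a factor of its library (0.5894, 0.6741 and 0.4386 at 1 month, 0.7443, 1.0036 and 0.8173 at 12 months). Division by the factor made 90.0 to 91.5% of gene sums whole to within 0.05, and these counts were used. Names come from the table and the RefSeq gene table (42652 of 42686 known transcripts, 99.9%, matched), and listed genes under LOC symbols were found by product description after the data were seen.

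Gene sums were rounded and tested with edgeR 4.0.16 in R 4.3.3 (filterByExpr, TMM, glmQLFit, glmQLFTest, Benjamini-Hochberg over all genes), age alone as the term, 3 against 3. The SE printed with a log2 fold change was not estimated by the fit. It is the absolute fold change divided by the square root of the F statistic of the quasi-likelihood test. The test was tested on simulated data. Those data varied less between libraries than the real ones and held no library that goes against its label. CPM of the 6 libraries use that TMM scale, also where a library was left out of the test. "At least" folds set 3 counts in each library of the age that is at 0, pooled ratios of genes with 1 to 3 counts at an age have exact binomial (Clopper-Pearson) intervals, and intervals and floors cover counting error only.

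Named are the 10 largest rises and falls among genes with an adjusted p under 0.05, no overlap and a mean of at least 20 CPM at the higher age, the 10 genes with the most counts at each age, and in each of 32 lists the 3 most abundant members, the up to 4 with the smallest adjusted p, and for cell types the defining markers and those at 0. Not every gene of this rule is described. Members and lists were chosen with earlier results of these data known.

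Alternatives were DESeq2 size factors, upper-quartile factors, total counts, no filter, DESeq2 1.42.0, the exact test, all 9 libraries, the replicate block, unsummed transcripts and leaving out each library. Chosen after seeing the data were the values as deposited, and the exact test, DESeq2 and total counts with 1 library left out.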

Additional observations from a re-analysis of the deposited data

How the results depend on the processing

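Counts are given as genes higher and lower at 12 months, against 927 and 1805 with the settings of the report, or 306 and 1462 with a log2 fold change beyond 2. The 4 counts stayed within 1.5 times of these with DESeq2 size factors, upper-quartile factors, a fit of all 9 libraries, no filter, and the values as deposited. Total counts gave 209 and 3317, and 104 higher beyond 2. The DESeq2 Wald test gave 1888 and 2934, and 637 higher beyond 2, and edgeR's exact test 1664 and 589 higher. The replicate block (paired by replicate number) gave 107 and 779, or 97 and 766 beyond 2, and transcripts not summed to genes 140 and 687, or 101 and 667. The labels give no pairing of the goats by replicate number. Deviations of libraries with the same number correlated across genes at -0.13, -0.12 and -0.11, against -0.04 to 0.16 for other pairs. With 3 libraries an age, such values cannot decide whether the numbers pair the goats.

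Leaving out each library in turn gave 0 to 3233 higher and 0 to 3445 lower, or 0 to 327 and 0 to 1604 beyond 2. Without the library labelled 1-month-old replicate 2, the exact test gave 3134 and 3582, the DESeq2 Wald test 3712 and 3966, and total counts 1206 and 6128, or 147 and 2214 beyond 2. Except for the fewer libraries and the different scaling, the cause was not tested. Without 12-month-old replicate 1 the exact test and DESeq2 shared 608 and 693 of the 927 and 1577 and 1744 of the 1805.

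No named gene with a call changed sign under the gene-level alternatives. Among those without a call, 8 changed sign without the library labelled 1-month-old replicate 2, 10 with total counts, 4 with the block, and at most 13 under any other alternative. Of 204 named genes, 72 lost their call with the block, 39 with total counts (7 gained one), 30 and 53 without 1-month-old replicates 1 and 3, and 128, 114 and 108 without 12-month-old replicates 1, 2 and 3, and 44 gained a call without the library labelled 1-month-old replicate 2, 26 by DESeq2, 19 by the exact test and 14 in the fit of 9 libraries.

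With 3 goats an age, a library that goes against its label and no lengths, the fold changes of abundant saliva genes depend on which 1-month-old libraries are used, genes under about 3 counts a library could not be compared, and levels per length cannot be ranked between genes.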

Other observations

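Genes that were higher at 12 than at 1 month did not share a pattern at 24 months. On a scale fitted to all 9 libraries, LOC102170799 (the BPIFA2 relative) stood at 56.7, 42.1 and 9.87 at 1 month, 29100, 35520 and 314 at 12 months and 151700, 126200 and 46210 CPM at 24 months. LOC102178801 (basic proline-rich) stood at 3.86, 1.03 and 1.37 at 1 month, 573, 3817 and 399 at 12 months and 4791, 5558 and 7212 CPM at 24 months. Both were highest at 24 months. LPO, the lactoperoxidase gene, stood at 174, 9.76 and 98.9 at 1 month, 9647, 6258 and 4350 at 12 months and 6615, 9022 and 22550 CPM at 24 months, with the 12-month-old and 24-month-old libraries overlapping. CSN3, the kappa-casein gene, stood at 0.89, 0 and 1.4 at 1 month, 106, 66.6 and 39.2 at 12 months and 27.9, 17.9 and 21.4 CPM at 24 months. SLC12A2, the chloride loader, stood at 963, 44.5 and 631 at 1 month, 2521, 3076 and 3518 at 12 months and 2030, 1325 and 1397 CPM at 24 months. Both were lower in every 24-month-old library than in any 12-month-old library. The differences between 12 and 24 months were not tested here.

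Titin (TTN), a giant protein of striated muscle, stood at 147, 40.9 and 41.8 at 1 month and 5.44, 254 and 3.38 CPM at 12 months on the scale of the 6 libraries. ACTA1, the actin of skeletal muscle, stood at 7.31, 3.44 and 0.407 at 1 month and 0.453, 30.6 and 0.343 CPM at 12 months. MYH2, a fast myosin, stood at 14.2, 0.356 and 0.423 at 1 month and 0, 36.7 and 0 CPM at 12 months. The 3 genes were highest in 12-month-old replicate 2 and second in 1-month-old replicate 1, and low in the other libraries except for TTN at 1 month.

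In 1-month-old replicate 3, genes induced by interferon stood apart. MX1, an antiviral GTPase, stood at 41.7, 116 and 565 at 1 month and 37.2, 41 and 22.8 CPM at 12 months. IFIT1, which binds viral RNA, stood at 37.7, 23.1 and 502 at 1 month and 20, 28.2 and 17.3 CPM at 12 months. S100A9, a neutrophil protein, stood at 0.469, 9.01 and 172 at 1 month and 0.771, 0.121 and 0.147 CPM at 12 months. The scavenger receptor MARCO stood at 14.3, 0.632 and 88.4 at 1 month and 0, 0 and 0 CPM at 12 months. The same library held the highest level of all 4 genes. The genes of these last paragraphs other than TTN were chosen after their values were seen.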
